A study of Homo sapiens with 6 samples.

Results

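The genes described here are 52 genes of the unfolded protein response and of the ATF4 program, chosen by symbol from a table of 60504 genes. All 52 were found in the table and 50 had enough counts to be tested. The RNA came from SK-MEL-28, an established human melanoma cell line, in 3 EV-labelled libraries and 3 HDAC8-labelled ones. Per the labels, the EV cells received the EV plasmid and served as control, and the others were labelled as expressing HDAC8, a histone deacetylase. Per the study's Methods, both plasmids were introduced with Lipofectamine and both cell populations were kept in hygromycin, so every library comes from transfected and selected cells. Flasks were harvested at 70% confluence. The comparison asks which of these stress genes differ in level between the HDAC8-labelled and the EV-labelled cells.

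The unfolded protein response is the cell's answer to unfolded protein in the endoplasmic reticulum (ER). PERK (gene EIF2AK3), IRE1 (gene ERN1) and ATF6 sense the stress in the ER membrane. IRE1 splices the XBP1 mRNA, ATF6 is cut to release a transcription factor, and PERK phosphorylates eIF2α. Phosphorylated eIF2α lowers general translation while letting the ATF4 mRNA be translated, and other kinases, such as GCN2 (gene EIF2AK4) on amino acid shortage, reach ATF4 by the same route. ATF6 and spliced XBP1 raise chaperones and ER-associated degradation, and ATF4 raises amino acid synthesis, amino acid uptake, aminoacyl-tRNA synthetases and, with CHOP (gene DDIT3), genes such as TRIB3 and CHAC1. Gene counts do not separate spliced from unspliced XBP1, and they do not show the translation of ATF4, the phosphorylation of eIF2α or the cutting of ATF6.

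The libraries held between 20850018 and 29822917 counts, and 3 counts corresponded to 0.101 to 0.144 CPM (counts scaled to library size), the unit used for levels below. HDAC8 itself, carried by the plasmid, did not tell the groups apart. It stood at 16.6, 15.2 and 11.8 CPM in EV replicates 1, 2 and 3 and at 14.2, 15.2 and 13.5 CPM in HDAC8 replicates 1, 2 and 3. The log2 fold change was -0.024 with a standard error (SE) of 0.13 (edgeR adjusted p = 0.924), and groups are therefore called by their labels throughout. Whether transcripts of the plasmid's insert are counted under the HDAC8 gene was not tested, and protein was not analysed here, so this value does not show whether HDAC8 was raised in these cells. Of 7 markers of the melanocyte lineage, PMEL, MITF, SOX10, TYR, MLANA and DCT were expressed at a mean of 68.3 CPM or more in both groups, while TYRP1 was near absent, with means of 0.380 CPM in the EV-labelled and 1.30 CPM in the HDAC8-labelled libraries. The 7 markers moved apart, with 4 higher (TYRP1, TYR, PMEL and SOX10, log2 fold changes of 1.76, 0.44, 0.34 and 0.23) and 2 lower (DCT and MITF, -1.77 and -0.14), and their part in the results below was not tested. PTPRC, EPCAM and KRT5, markers of blood, epithelium and keratinocytes, had 0 or 1 count in every library, and the endothelial marker PECAM1 had between 2 and 17. The fibroblast marker COL1A1 had 30, 30 and 57 counts in the EV-labelled libraries and 41, 17 and 31 in the HDAC8-labelled ones (adjusted p = 0.393).

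In the comparison, 10 of the 50 tested genes rose in the HDAC8-labelled libraries at an adjusted p below 0.05, 9 fell, and 31 passed in neither direction. Across all 16195 genes tested, 11.1% were higher and 11.7% were lower, against 20% and 18% of the ATF4 and unfolded protein response genes. These genes are expressed well above the average gene, with a median of 76.2 CPM against 18.8 CPM over all genes tested, and well expressed genes passed the test more often. Among the 9780 genes averaging 10 CPM or more, 14.1% were higher and 15.8% were lower. Among the 4631 genes averaging 50 CPM or more, 17.8% were higher and 19.1% were lower. Part of the stress genes, TRIB3, DERL2 and ASNS among them, averaged below 50 CPM, so neither set matches them in level. With a further limit of 0.58 on the log2 fold change, only SLC7A5 was higher, and TRIB3 and DERL3 were lower. The same limit was passed by 4.07% of all genes tested upward and by 3.45% downward.

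The log2 fold changes of the 50 genes ran from -1.13 to 0.67, with a median of 0.013 against 0.0091 over all genes tested. A positive value was seen for 26 genes and a negative one for 24. The direction followed the role of the genes unevenly. No sensor or eIF2 regulator passed the test, ATF4 and XBP1 were higher, all 4 of the degradation genes that passed were lower, and the chaperones split into 5 higher and 3 lower.

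**Figure D1:**
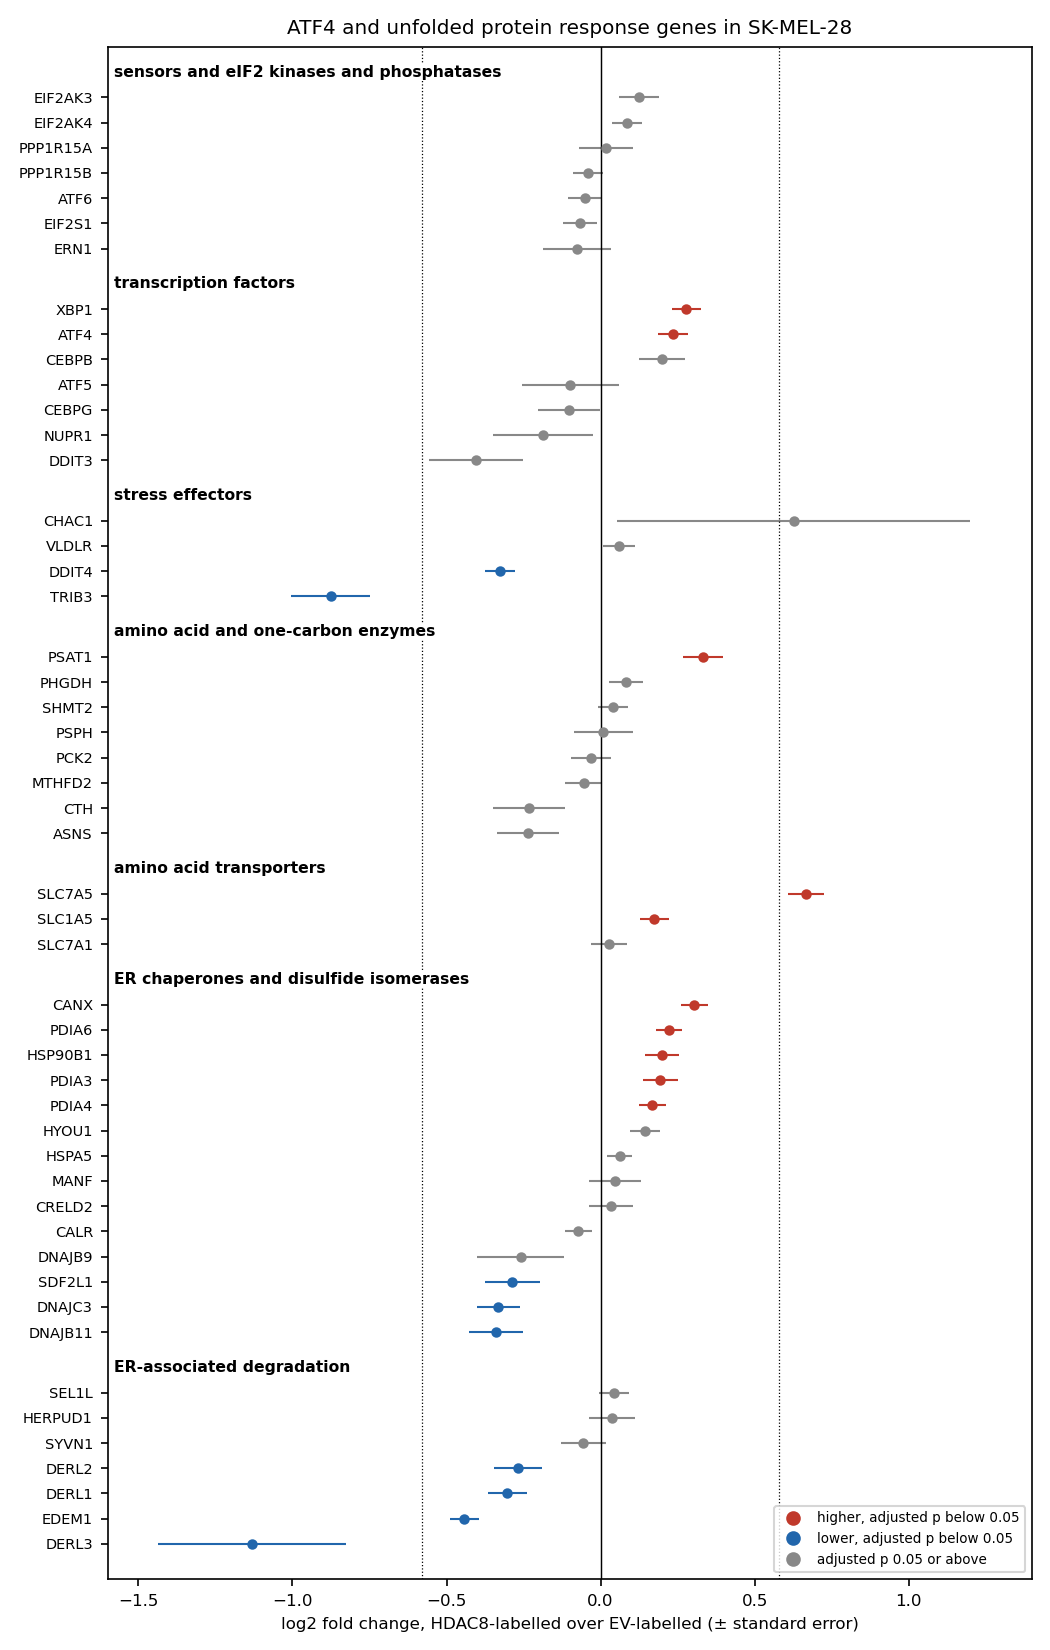
Log2 fold change of the 50 tested genes, HDAC8-labelled over EV-labelled, grouped by role on the vertical axis; points are edgeR estimates, horizontal bars are ± 1 standard error, colours give the result of the test and dotted lines mark the limit of 0.58. The values run from -1.13 for DERL3 to 0.67 for SLC7A5, and 10 genes were higher and 9 lower.

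The start-proximal sequences of several of these genes hold the letters that the known factors read. They are shown because the ER stress response element (ERSE) is read by ATF6 with NF-Y and the core of the CARE element is read by ATF4 with a C/EBP partner. An ERSE was searched as CCAAT and CCACG with 9 bases between them, the CARE core as TGATGNAA, and the unfolded protein response element as TGACGTGG, on both strands of RefSeq windows from 250 bases before to 50 bases after each start (build GRCh38.p14). Windows existed for 45 of the 52 genes. An ERSE stood in 7 of the 45 (15.6%), against 0.0916% of 27305 genes with a window and 0.142% of the 11281 tested ones. A CARE core stood in 7 of the 45 (15.6%), against 4.46% and 2.80%. The unfolded protein response element stood in 1 of the 45, HYOU1, against 0.927% of all windowed genes. The shared CCACG letters can make an ERSE and this element overlap, but no gene of the 45 held both. Many of these genes were among those from which the elements were defined, so the shares are a description. Each line below is written 5′ to 3′ on the gene's strand with the element in capitals. The capitals are the reverse complement of the letters above in CALR, CRELD2, CHAC1, HERPUD1 and IARS1. IARS1 is not one of the 52 genes and belongs to the synthetases described further on. None of these stretches lay in an exon of the gene's canonical GENCODE transcript. Those of XBP1, HSPA5, PDIA6 and SLC1A5 overlapped an exon of another transcript of the gene in part, by 7 bases in PDIA6 and 22 in SLC1A5. Those of CANX, ASNS, CHAC1 and IARS1 lay wholly in such an exon. They were shortened to at most 30 bases around the element, so their printed lengths do not measure the overlap.
XBP1 ERSE, chr22:28800583-28800641, minus strand: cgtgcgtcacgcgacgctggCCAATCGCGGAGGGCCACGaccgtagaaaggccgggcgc
HSPA5 ERSE, chr9:125241371-125241429, minus strand: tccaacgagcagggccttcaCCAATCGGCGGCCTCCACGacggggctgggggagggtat
PDIA6 ERSE, chr2:10812833-10812891, minus strand: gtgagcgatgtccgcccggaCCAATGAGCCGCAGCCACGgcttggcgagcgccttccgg
CANX ERSE, chr5:179698773-179698801, plus strand: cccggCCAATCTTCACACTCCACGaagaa
CALR ERSE, chr19:12938364-12938422, plus strand: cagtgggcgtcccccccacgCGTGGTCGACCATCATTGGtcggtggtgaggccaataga
CRELD2 ERSE, chr22:49918534-49918592, plus strand: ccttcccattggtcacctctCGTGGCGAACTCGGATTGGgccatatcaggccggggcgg
ASNS CARE core, chr7:97872458-97872487, minus strand: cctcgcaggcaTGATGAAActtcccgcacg
SLC1A5 CARE core, chr19:46784884-46784931, minus strand: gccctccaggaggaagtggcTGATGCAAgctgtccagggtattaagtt
CEBPG CARE core, chr19:33374051-33374098, plus strand: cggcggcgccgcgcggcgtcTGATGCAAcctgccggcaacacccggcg
CHAC1 CARE core, chr15:40953251-40953280, plus strand: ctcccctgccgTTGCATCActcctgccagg
HERPUD1 CARE core, chr16:56931946-56931993, plus strand: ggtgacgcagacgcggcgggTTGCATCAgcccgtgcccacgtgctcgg
IARS1 CARE core, chr9:92293698-92293721, minus strand: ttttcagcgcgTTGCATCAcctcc

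Not every gene holding the same element passed the test. Of the 7 with an ERSE, XBP1, HSP90B1, CANX and PDIA6 were higher, while HSPA5, CALR and CRELD2 passed in neither direction. Of the 7 with a CARE core, only SLC1A5 passed the test, and it was higher. The others were PPP1R15B, CEBPG, CHAC1, ASNS, SLC7A1 and HERPUD1. The printed stretches of SLC1A5, CANX and PDIA6 lay inside the annotated genes, whose 5′ ends are at chr19:46788594, chr5:179678628 and chr2:10837977. The windows that hold them belong to RefSeq starts further downstream. Over all genes tested 11.1% were higher and 11.7% were lower, and whether holders of an element pass more often was not tested.

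None of the 7 sensors, eIF2 kinases and eIF2 phosphatase subunits passed the test. Their log2 fold changes lay between -0.077 for ERN1 and 0.12 for EIF2AK3, a narrower range than in the other role groups of the 52 genes with 7 or more tested genes. The gene of PERK, EIF2AK3, stood at 38.9, 41.4 and 40.7 CPM in the EV-labelled libraries and at 42.7, 42.9 and 46.3 CPM in the HDAC8-labelled ones (adjusted p = 0.213). ERN1 was at 13.2 ± 0.369 CPM (SD, n = 3) against 12.5 ± 1.30, and ATF6 at 85.7 ± 2.18 CPM against 82.8 ± 3.42. PPP1R15A, the stress-induced subunit that leads eIF2α back to its unphosphorylated form, was at 31.4 ± 1.24 CPM against 31.8 ± 3.66.

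Of the 7 transcription factors, XBP1 and ATF4 were higher (28.6%) and none was lower, against 11.1% and 11.7% of all genes tested. XBP1 (ENSG00000100219, chr22:28794555-28800597, minus strand) stood at 118.5, 123.8 and 119.0 CPM in the EV-labelled libraries and at 149.9, 146.8 and 141.6 CPM in the HDAC8-labelled ones. Every HDAC8-labelled library was above every EV-labelled one, with a log2 fold change of 0.28 (SE 0.048, edgeR adjusted p = 0.00137). ATF4 (ENSG00000128272, chr22:39519695-39522683, plus strand) stood at 177.2, 173.1 and 168.1 CPM against 210.4, 195.8 and 203.7 CPM. Its groups did not overlap either, and its log2 fold change was 0.24 (SE 0.047, edgeR adjusted p = 0.00371). Both calls held when any library was left out. ATF4 has processed pseudogenes, and part of its reads were divided among genes by the authors' counting, but the 4 pseudogenes named after ATF4 in the table had at most 19 counts in any library.

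DDIT3, which encodes CHOP, went the other way without passing the test. It stood at 8.68, 9.71 and 10.46 CPM in the EV-labelled libraries and at 7.95, 5.97 and 7.80 CPM in the HDAC8-labelled ones. The groups did not overlap, but the log2 fold change of -0.41 had an SE of 0.15 (edgeR adjusted p = 0.0800). In the annotation 27.2% of the exon length of DDIT3 overlaps exons of MARS1 on the opposite strand, and MARS1 was higher (log2 fold change 0.26, adjusted p = 0.00293). Whether the counting used strand is not given in the sources used here. CEBPB, a partner of ATF4, had a log2 fold change of 0.20 (edgeR adjusted p = 0.0788). It passed with no filter on low counts (adjusted p = 0.0417), without EV replicate 3 (adjusted p = 0.0407) and without HDAC8 replicate 1 (adjusted p = 0.0493). CEBPG and NUPR1 had log2 fold changes of -0.10 and -0.19, neither past the test.

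**Figure D2:**
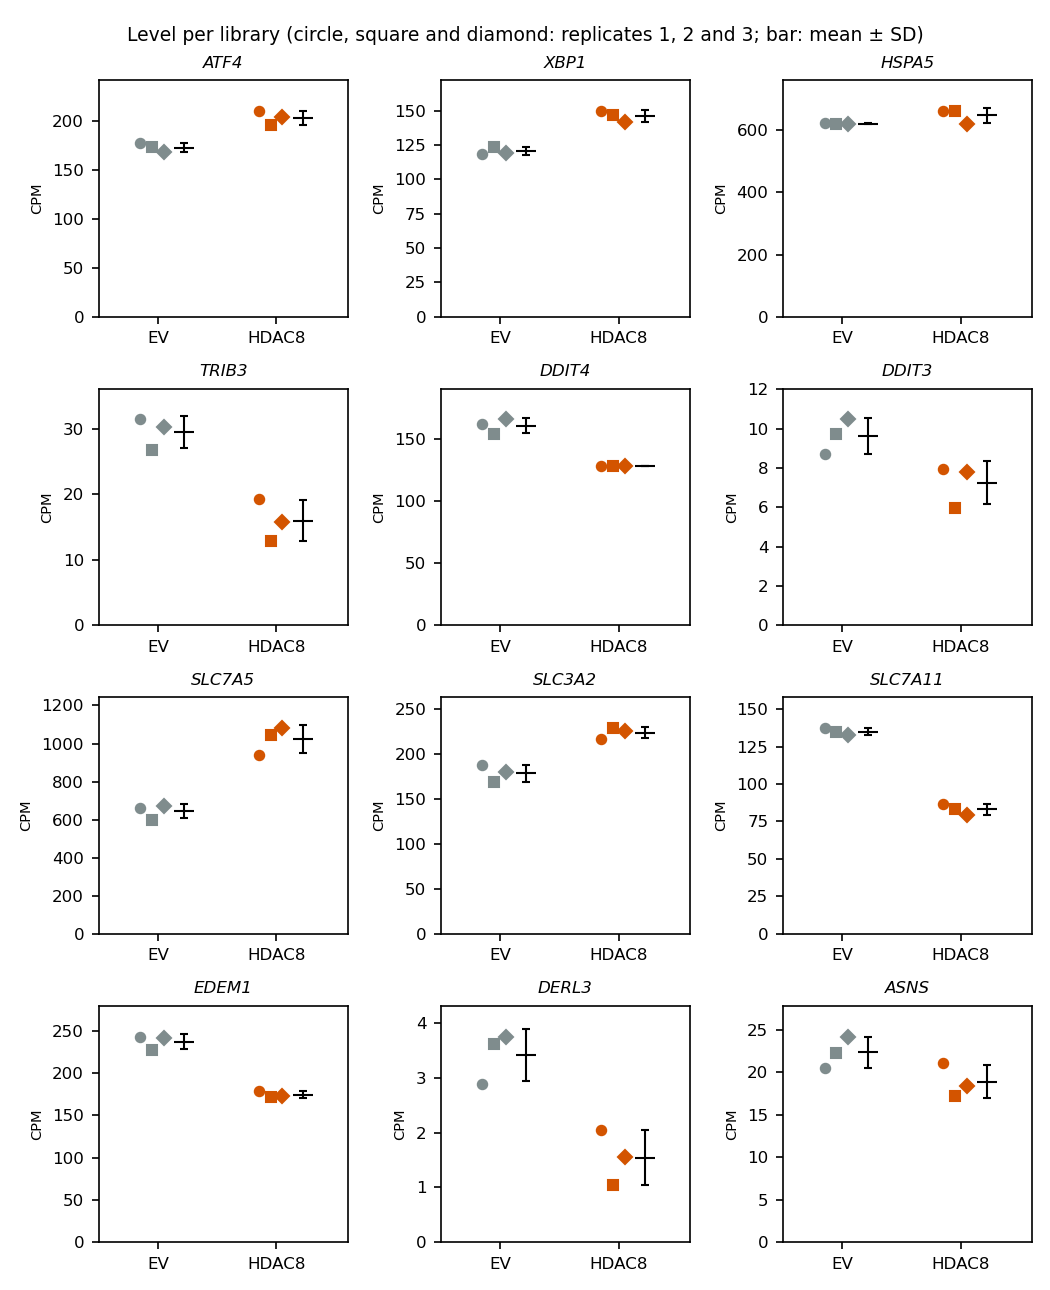
Levels in CPM of 12 genes in each of the 6 libraries, with circles, squares and diamonds for replicates 1, 2 and 3 and a bar for the mean ± SD of each group; each vertical axis starts at 0. ATF4, XBP1, SLC7A5 and SLC3A2 sit higher in all 3 HDAC8-labelled libraries, TRIB3, DDIT4, DDIT3, SLC7A11, EDEM1 and DERL3 sit lower, and HSPA5 and ASNS overlap.

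TRIB3 and DDIT4, both known ATF4 targets, were lower. TRIB3 (ENSG00000101255, chr20:362835-397559, plus strand), a pseudokinase that acts back on ATF4 and CHOP, stood at 31.4, 26.7 and 30.3 CPM in the EV-labelled libraries. It stood at 19.2, 12.9 and 15.8 CPM in the HDAC8-labelled ones, each below every EV-labelled library. The log2 fold change was -0.88 (SE 0.13, edgeR adjusted p = 0.000409) and stayed between -1.04 and -0.76 under every alternative run.

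DDIT4, also called REDD1, an inhibitor of mTORC1, stood at 162.3, 154.5 and 165.9 CPM against 128.1, 128.6 and 128.3 CPM. The HDAC8-labelled libraries lay within 1 CPM of each other and below every EV-labelled one, with a log2 fold change of -0.33 (SE 0.047, edgeR adjusted p = 0.00039). VLDLR, a lipoprotein receptor gene, was at 78.7 ± 2.11 CPM against 82.0 ± 0.811 and did not pass the test.

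CHAC1 and STC2 were high in 1 library. CHAC1, which degrades glutathione, had 10, 17 and 18 counts in the EV-labelled libraries and 58, 10 and 12 in the HDAC8-labelled ones. Its log2 fold change was 0.63 with an SE of 0.57 (edgeR adjusted p = 0.493), and it was -0.38 without HDAC8 replicate 1 (adjusted p = 0.723). STC2, a secreted glycoprotein gene, had 3, 8 and 8 counts against 77, 2 and 0, and it was not tested because too few libraries reached the minimum.

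The same library stood apart for ATF5, a transcription factor gene close to ATF4. ATF5 was at 19.4, 18.6 and 20.6 CPM in the EV-labelled libraries and at 23.9, 16.0 and 14.5 CPM in the HDAC8-labelled ones. HDAC8 replicate 1 was the highest of the 6 and replicates 2 and 3 the lowest. Over all 3 replicates the log2 fold change was -0.098 (adjusted p = 0.718), and without HDAC8 replicate 1 it was -0.36 (edgeR adjusted p = 0.0350). In the annotation 19.5% of the exon length of ATF5 overlaps NUP62 on the opposite strand. NUP62 had means of 110 CPM in the EV-labelled and 112 CPM in the HDAC8-labelled libraries. The part of its reads in the ATF5 value was not tested. HDAC8 replicate 1 was also the deepest library. Of all tested genes, 201 were at least 2-fold above both other libraries of the group in it, against 82 in replicate 2 and 213 in replicate 3, and between 79 and 223 in the EV-labelled libraries.

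**Figure D3:**
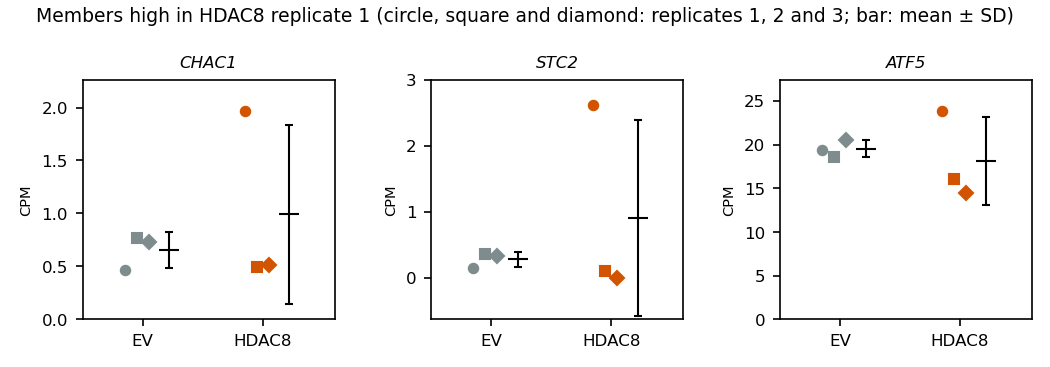
Levels in CPM of CHAC1, STC2 and ATF5 in each library, with circles, squares and diamonds for replicates 1, 2 and 3 and a bar for the mean ± SD of each group; the SD bar of STC2 reaches below 0. HDAC8 replicate 1 is the highest library in all 3 panels, with 58 counts of CHAC1 and 77 of STC2 behind the points.

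Of the 9 enzymes of amino acid and one-carbon metabolism 8 were tested. PSAT1 was higher (12.5%) and none was lower, against 11.1% and 11.7% of all genes tested. PSAT1, which makes phosphoserine on the way to serine, stood at 73.5, 63.8 and 66.9 CPM in the EV-labelled libraries and at 87.5, 82.4 and 87.0 CPM in the HDAC8-labelled ones. The groups did not overlap, and the log2 fold change was 0.33 (SE 0.064, edgeR adjusted p = 0.00269). The other enzymes of the serine pathway did not pass. PHGDH, the first enzyme, had a log2 fold change of 0.082 (adjusted p = 0.341), PSPH, the last, 0.0093 (adjusted p = 0.960), and SHMT2, which turns serine into glycine in mitochondria, 0.039 (adjusted p = 0.634).

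ASNS, asparagine synthetase and a widely used readout of ATF4, did not pass the test. It stood at 20.5, 22.3 and 24.2 CPM in the EV-labelled libraries and at 21.1, 17.2 and 18.4 CPM in the HDAC8-labelled ones, so that HDAC8 replicate 1 lay within the EV range. The log2 fold change was -0.24 (SE 0.10, edgeR adjusted p = 0.121), and it was -0.33 without HDAC8 replicate 1 (adjusted p = 0.0498). CTH, MTHFD2 and PCK2 had log2 fold changes of -0.23, -0.054 and -0.031, none past the test. ALDH1L2, a mitochondrial folate enzyme, was too low to test, with 2, 3 and 6 counts against 13, 8 and 2.

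SLC7A5, which carries large neutral amino acids such as leucine into the cell, showed the largest increase of the 50 tested genes. SLC7A5 (ENSG00000103257, chr16:87830023-87869507, minus strand) stood at 661.7, 600.3 and 670.5 CPM in the EV-labelled libraries and at 940.0, 1045 and 1081 CPM in the HDAC8-labelled ones. The lowest HDAC8-labelled library was above the highest EV-labelled one by more than the range within either group. The log2 fold change was 0.67 (SE 0.059, edgeR adjusted p = 7.65e-06) and stayed between 0.62 and 0.72 under every alternative run. Reads of SLC7A5 can be divided with its copies, and the table listed SLC7A5P1 at means of 2.04 and 1.56 CPM and SLC7A5P2 at 0.791 and 1.68 CPM in the EV-labelled and HDAC8-labelled libraries.

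SLC3A2, which encodes the heavy chain that SLC7A5 pairs with, was taken from a separate list of 17 further ATF4 targets. It was also higher, at 187.7, 168.8 and 179.9 CPM against 216.9, 229.2 and 226.3 CPM (log2 fold change 0.33, SE 0.051, edgeR adjusted p = 0.000702). SLC7A11, the cystine carrier that pairs with the same heavy chain, was lower. It stood at 137.3, 134.9 and 132.5 CPM against 86.4, 83.1 and 79.5 CPM, with a log2 fold change of -0.70 (SE 0.052, edgeR adjusted p = 1.57e-06). The light chains of these heteromers moved in opposite directions, and in neither gene did the groups overlap.

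SLC1A5, a glutamine transporter, stood at 214.7, 204.4 and 216.8 CPM against 232.6, 237.2 and 247.7 CPM. Its groups did not overlap, and its log2 fold change was 0.17 (SE 0.047, edgeR adjusted p = 0.0187). The call was lost without EV replicate 1, 2 or 3 or without HDAC8 replicate 2, with adjusted p between 0.0518 and 0.0782. SLC7A1, the transporter of arginine and lysine, did not pass, with a log2 fold change of 0.027.

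Of the 14 chaperones and disulfide isomerases, 5 were higher (35.7%) and 3 were lower (21.4%). The shares were 11.1% and 11.7% over all genes tested, and 17.8% and 19.1% at 50 CPM or more. HSPA5, the gene of the chaperone BiP and the usual marker of the response, did not pass. It stood at 624.0, 621.3 and 619.6 CPM in the EV-labelled libraries and at 661.8, 663.2 and 621.9 CPM in the HDAC8-labelled ones, so that the groups overlapped. The log2 fold change of HSPA5 was 0.062 (SE 0.041, edgeR adjusted p = 0.332).

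The 5 higher genes were the lectin chaperone CANX, the HSP90 family member HSP90B1 and the disulfide isomerases PDIA3, PDIA4 and PDIA6. CANX (calnexin), which holds newly made glycoproteins, stood at 916.6, 906.2 and 916.6 CPM against 1157, 1166 and 1060 CPM. Its groups did not overlap, and its log2 fold change was 0.30 (SE 0.044, edgeR adjusted p = 0.0004). CALR (calreticulin), its soluble relative, did not pass and stood at 757 ± 24.3 CPM against 720 ± 22.1 (SD, n = 3).

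PDIA6 had a log2 fold change of 0.22 (adjusted p = 0.00227), HSP90B1 of 0.20 (adjusted p = 0.0227), PDIA3 of 0.19 (adjusted p = 0.0285) and PDIA4 of 0.17 (adjusted p = 0.0141). CANX and PDIA6 kept their calls whichever library was left out. Those of HSP90B1 and PDIA3 were lost in 5 of the 6 fits that left out 1 library, all but the one without HDAC8 replicate 3. Adjusted p then ran from 0.0506 to 0.117 for HSP90B1 and from 0.0747 to 0.139 for PDIA3. For PDIA4 the call was lost without EV replicate 1, EV replicate 2 or HDAC8 replicate 2, with adjusted p of 0.0524, 0.0585 and 0.0634. HYOU1, a large BiP-like chaperone, had a log2 fold change of 0.15 and an adjusted p of 0.05001, just above the threshold. It passed without HDAC8 replicate 1 (adjusted p = 0.0343). With all libraries it passed in DESeq2 (adjusted p = 0.0307), and in edgeR with upper-quartile factors (0.0290) or at least 10 counts in every library (0.0384). The other alternatives did not pass, with adjusted p up to 0.186.

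The 3 lower genes were DNAJB11, DNAJC3 and SDF2L1, all of which encode partners of BiP. DNAJC3 (P58IPK), a co-chaperone that also inhibits eIF2α kinases, stood at 89.7, 79.2 and 80.2 CPM against 62.2, 71.1 and 64.8 CPM, with no overlap. Its log2 fold change was -0.33 (SE 0.070, edgeR adjusted p = 0.00491). DNAJB11 (ERdj3) stood at 31.89, 30.95 and 30.72 CPM against 26.9, 25.2 and 21.7 CPM, also without overlap.

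The log2 fold change of DNAJB11 was -0.34 (SE 0.088, edgeR adjusted p = 0.0154), and the call was lost without EV replicate 1 (adjusted p = 0.0652). SDF2L1 had a log2 fold change of -0.29 (edgeR adjusted p = 0.0361). The call of SDF2L1 was lost without EV replicate 2, EV replicate 3, HDAC8 replicate 1 or HDAC8 replicate 3, with adjusted p between 0.0653 and 0.169. DNAJB9, a further BiP partner of the J-domain family, had a log2 fold change of -0.26 that did not pass (adjusted p = 0.229). MANF and CRELD2, secreted proteins of the response, had log2 fold changes of 0.047 and 0.033 and did not pass.

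Of the 7 genes of ER-associated degradation, 4 were lower (57.1%) and none was higher, with a median log2 fold change of -0.27 against 0.0091 over all genes tested. Of all genes tested 11.7% were lower, and 19.1% of those averaging 50 CPM or more. EDEM1 (ENSG00000134109, chr3:5187646-5219958, plus strand), which trims mannose from misfolded glycoproteins to send them for degradation, stood at 242.9, 227.2 and 241.1 CPM against 179.1, 171.6 and 172.5 CPM. The highest HDAC8-labelled library was well below the lowest EV-labelled one, and the log2 fold change was -0.44 (SE 0.047, edgeR adjusted p = 3.38e-05). This call held in every alternative run.

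The derlins, membrane proteins of the export channel, were all lower. DERL1 had a log2 fold change of -0.30 (adjusted p = 0.00508) and DERL2 of -0.27 (adjusted p = 0.0253). The call of DERL1 held whichever library was left out, and that of DERL2 held only in the fit without HDAC8 replicate 3. Without EV replicate 1, 2 or 3 or HDAC8 replicate 1 or 2 the adjusted p of DERL2 lay between 0.0672 and 0.0985.

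DERL3 (ENSG00000099958, chr22:23834503-23839128, minus strand) stood at 2.88, 3.61 and 3.74 CPM against 2.04, 1.04 and 1.55 CPM. The groups did not overlap, and the log2 fold change was -1.13 (SE 0.31, edgeR adjusted p = 0.0193), the largest decrease of the 50 genes at one of the lowest levels. The call was lost without EV replicate 2 (adjusted p = 0.0619), EV replicate 3 (adjusted p = 0.0777) or HDAC8 replicate 2 (adjusted p = 0.0589). In the annotation 77.0% of the exon length of DERL3 overlaps SMARCB1 on the opposite strand, which is far more abundant, with a mean of 105 CPM in the EV-labelled libraries and 97.5 CPM in the HDAC8-labelled ones (log2 fold change -0.11, adjusted p = 0.203). The part of these reads in the DERL3 value was not tested. The ubiquitin ligase SYVN1, its adaptor SEL1L and HERPUD1, all parts of the same complex, had log2 fold changes between -0.056 and 0.044 and did not pass.

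The aminoacyl-tRNA synthetases, which load amino acids onto tRNAs, were read from 2 further lists, because ATF4 is known to raise a part of them. Of 12 cytosolic synthetases named as ATF4 targets, 8 were higher (66.7%) and none was lower, with a median log2 fold change of 0.21. The share of higher genes was 11.1% over all genes tested and 17.8% at 50 CPM or more. Of 8 other cytosolic synthetases none passed in either direction, and their median was 0.013. The difference between the lists was not tested.

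TARS1, the threonyl-tRNA synthetase, stood at 146.4, 139.6 and 136.8 CPM against 209.1, 195.2 and 184.9 CPM (log2 fold change 0.48, SE 0.055, edgeR adjusted p = 6.68e-05). IARS1, the isoleucyl-tRNA synthetase, stood at 256.4, 240.8 and 249.5 CPM against 322.0, 319.7 and 313.3 CPM (log2 fold change 0.35, SE 0.043, edgeR adjusted p = 0.000112). In both genes every HDAC8-labelled library was above every EV-labelled one. The calls of EPRS1 and NARS1 were lost in most of the fits that left out 1 library, with adjusted p up to 0.102 for EPRS1 without EV replicate 3 and 0.0942 for NARS1 without EV replicate 2. A CARE core stood in the windows of 7 of the 10 ATF4-target synthetases with a window (70%) and in none of the 6 others. It stood in 2.80% of the tested genes with a window. The first list was chosen as named ATF4 targets, so this contrast is a description only. GARS1, IARS1, MARS1, NARS1 and TARS1 held the core and were higher, and AARS1 and CARS1 held it and did not pass.

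**Figure D4:**
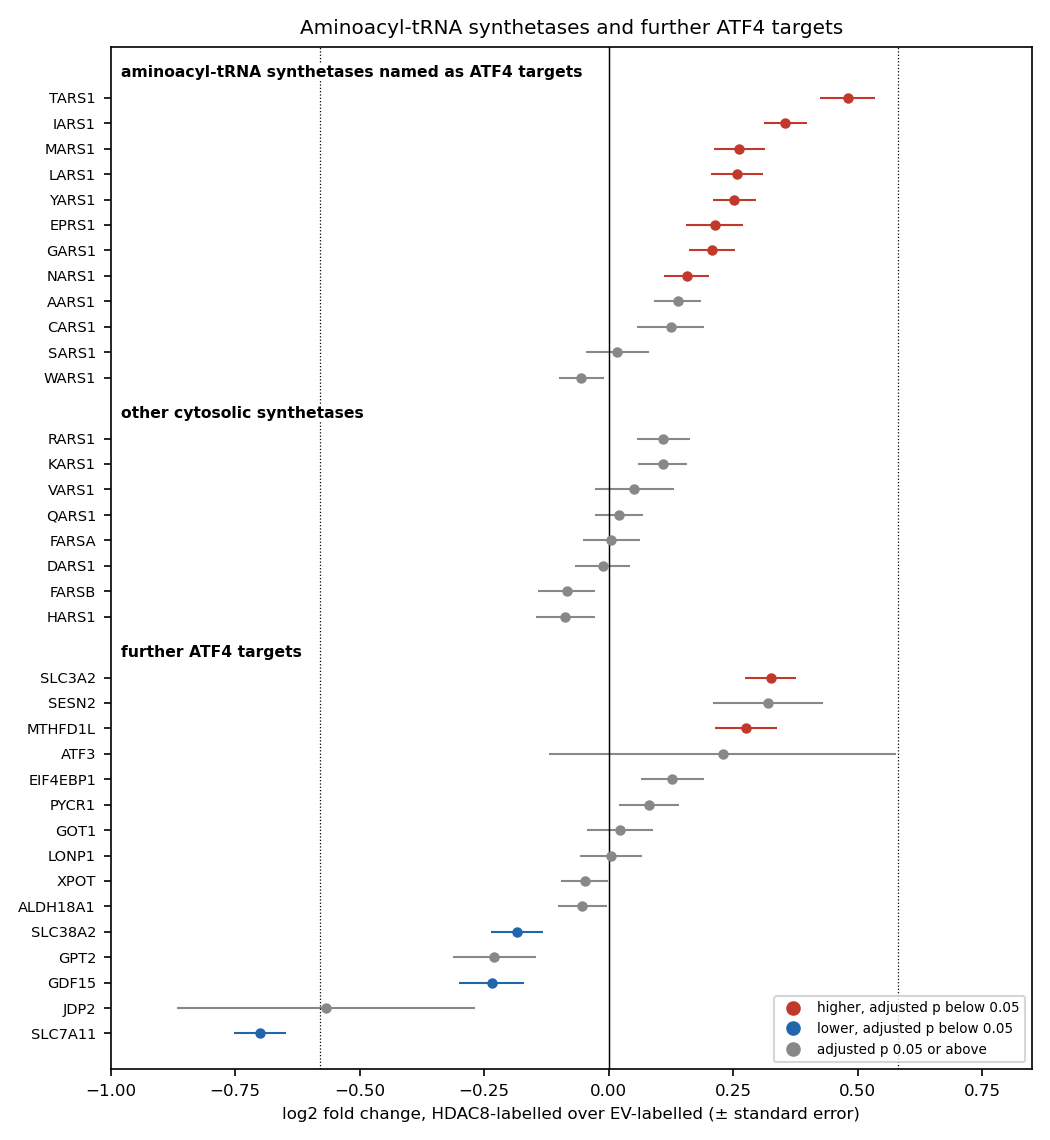
Log2 fold change, HDAC8-labelled over EV-labelled, of 12 aminoacyl-tRNA synthetases named as ATF4 targets, 8 other cytosolic synthetases and 15 tested further ATF4 targets; points are edgeR estimates, horizontal bars are ± 1 standard error, colours give the result of the test and dotted lines mark the limit of 0.58. Of the first list 8 were higher, of the second none passed, and the third holds both SLC3A2 at 0.33 and SLC7A11 at -0.70.

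The further ATF4 targets passed in both directions. Of 15 tested, 2 were higher (13.3%, SLC3A2 and MTHFD1L) and 3 were lower (20%, SLC7A11, GDF15 and SLC38A2). The shares were 11.1% and 11.7% over all genes tested, and 17.8% and 19.1% at 50 CPM or more. GDF15, a stress cytokine, had a log2 fold change of -0.24 (adjusted p = 0.0224), which lost the test without EV replicate 1 (0.0804), EV replicate 3 (0.116) or HDAC8 replicate 1 (0.0524). SLC38A2, an amino acid carrier, had -0.18 (adjusted p = 0.0238), which lost it without EV replicate 1 (0.102) or EV replicate 3 (0.0799). SLC6A9 and FGF21 were too low to test. SLC6A9 had 9, 5 and 10 counts in the EV-labelled libraries and 51, 8 and 15 in the HDAC8-labelled ones, highest in HDAC8 replicate 1. FGF21 had 0 counts in every library.

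Around the sensors, CREB3L2, an ER-bound factor related to ATF6, was higher and ATF6B, the second ATF6 gene, was lower. CREB3L2 stood at 176.9, 162.6 and 167.4 CPM against 243.5, 243.8 and 249.2 CPM (log2 fold change 0.54, SE 0.047, edgeR adjusted p = 6.62e-06). ATF6B had a log2 fold change of -0.34 (adjusted p = 0.00508). The other 3 tested genes of that list passed in neither direction.

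Among 12 other genes of the eIF2 pathway none was higher and 2 were lower (16.7%), against 11.1% and 11.7% of all genes tested. The lower ones were EIF2B5, the catalytic subunit of the exchange factor eIF2B, and OMA1, a mitochondrial protease. Their log2 fold changes were -0.34 (adjusted p = 0.00561) and -0.27 (adjusted p = 0.0417). The call of OMA1 was lost without EV replicate 1, 2 or 3 or without HDAC8 replicate 2, with adjusted p up to 0.147.

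Of 18 other folding and degradation genes, 3 were higher (16.7%) and 1 was lower (5.56%). The lower one was ERO1B, an oxidase that recharges disulfide isomerases, with a log2 fold change of -0.65 (SE 0.18, edgeR adjusted p = 0.0224), lost without EV replicate 2, EV replicate 3 or HDAC8 replicate 1 at adjusted p of 0.0727, 0.0659 and 0.0544. The largest of the higher ones was ERLEC1, a lectin of the degradation route, at 0.26 (adjusted p = 0.0234), a call that held without HDAC8 replicate 3 and was lost without any other single library, at adjusted p up to 0.102. Of 16 genes of ER translocation and sorting, 3 were higher (18.8%) and 2 were lower (12.5%). Over the 86 tested genes of all these further lists, 19.8% were higher and 10.5% were lower. The shares were 11.1% and 11.7% over all genes tested, and 17.8% and 19.1% at 50 CPM or more. Part of these genes, ERO1B and SEC61B among them, averaged below 50 CPM, so neither set matches them in level. SEC61A1 and SEC61B, subunits of the Sec61 channel, moved in opposite directions, at -0.37 (adjusted p = 0.000168) and 0.36 (adjusted p = 0.00461).

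Levels were compared between genes per kilobase of canonical transcript. CALR was highest in the EV-labelled libraries with 398 ± 12.8 CPM per kilobase (SD, n = 3), and HSP90B1 with 186 ± 5.28 and CANX with 186 ± 1.22 came next, within their spread of each other. HSPA5 followed with 159 ± 0.567 CPM per kilobase and SLC7A5 with 141 ± 8.41. In the HDAC8-labelled libraries SLC7A5 reached 224 CPM per kilobase, near CANX with 229.

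ATF4 ranked 7 of 52 by CPM per kilobase in the EV-labelled libraries, XBP1 ranked 14, and the lowest were DERL3, CHAC1, STC2 and ALDH1L2. CHAC1 stood at 0.431 CPM per kilobase and ALDH1L2 at 0.0212. The spread between libraries was small for most of the genes, with a median coefficient of variation of 3.62% in the EV-labelled and 6.21% in the HDAC8-labelled libraries. Among the 50 tested genes it was largest for CHAC1 in both groups, at 25.4% and 85.1%.

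**Figure D5:**
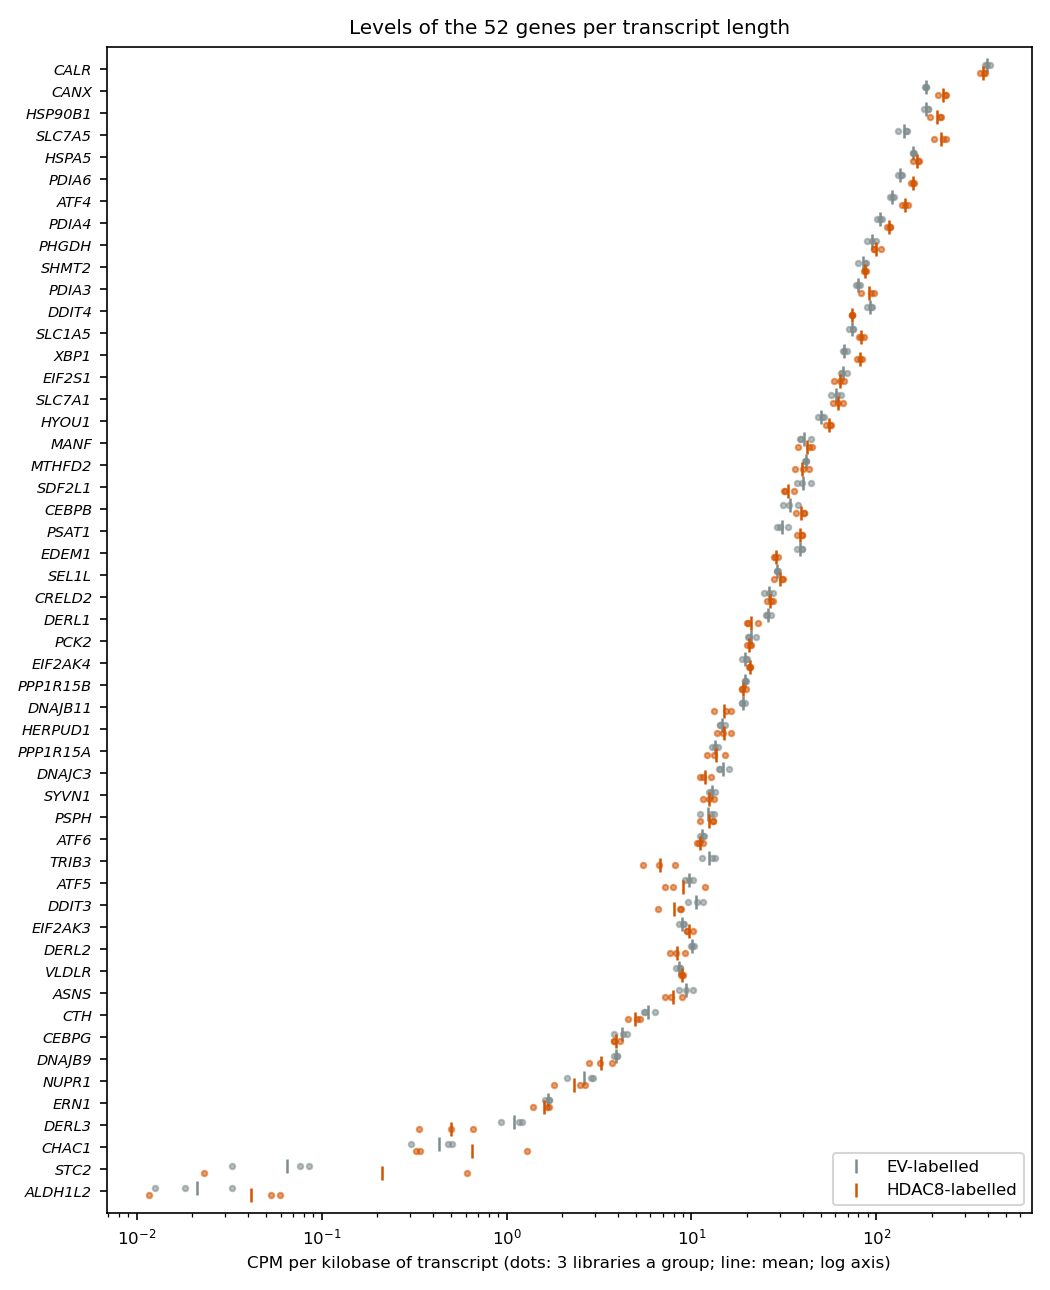
Levels of the 52 genes in CPM per kilobase of transcript on a log axis, ordered by the sum of both group means; dots are the 3 libraries of each group, vertical ticks are group means, and STC2 in HDAC8 replicate 3 is at 0 and cannot be drawn. Levels run from 398 for CALR to 0.0212 for ALDH1L2 in the EV-labelled libraries. The widest scatter within a group is seen at the low end, in STC2, ALDH1L2 and CHAC1.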

How the data were processed

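RNA was measured in 6 libraries. Per the deposited table, the authors gave estimated counts for each Ensembl gene, made with Trimmomatic, STAR and RSEM on GRCh38 per the labels; the annotation and strand setting are not given in the sources used here, and the labels and Methods name different library kits. RSEM divides reads among similar genes, so 5351 to 5685 values per library were not whole, and all were rounded. A table of the authors' own comparison (fold change, p-value, group values) was not used. Symbols were matched by Ensembl ID for 56558 of 60504 genes, and positions and lengths are from GENCODE 44.

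Genes passing filterByExpr (minimum 10 counts) entered the quasi-likelihood test of edgeR (edgeR 4.0.16, R 4.3.3, TMM) and Benjamini-Hochberg adjustment at 0.05, and the standard error was taken from the ratio of the estimate to the root of F. Alternatives were DESeq2 1.42.0, other scalings and count filters, a replicate block and leaving out each library. On simulated data the share of false calls lay above 0.05 for edgeR and DESeq2, and the limit set for it was relaxed after this was seen, so calls just under the threshold are less certain than their adjusted p. The labels number bioreps and name no separate cultures, so p-values measure the spread between these libraries. Statements that the groups did not overlap describe single genes. The share of all genes tested without overlap was not counted, and VLDLR, EIF2AK4 and CTH showed no overlap without passing the test.

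Genes and lists were chosen with earlier results of these data known. Full values are given for ATF4, DDIT3, ASNS, TRIB3, XBP1 and HSPA5, for genes past the fold limit, and for up to 2 genes of largest change past the test in each role group and list; the other genes with full values, CHAC1, ATF5 and EIF2AK3 among them, were picked after their values were seen. Also after seeing the data, length was changed to the canonical transcript and motifs were counted in any window of a gene. The shares of calls at 10 CPM or more and at 50 CPM or more were added then too.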

Additional observations from a re-analysis of the deposited data

How the results depend on the processing

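Of the 19 genes that passed, 11 kept their call and all 19 kept their direction under each of the 13 alternatives, and 27 of the 31 others never passed (the exceptions were ATF5, CEBPB, ASNS and HYOU1). Leaving out 1 library at a time gave 6 to 10 genes higher, 6 to 9 lower, 1 higher past the fold limit and 1 or 2 lower past it, a median log2 fold change between -0.036 and 0.018, and, among the 86 tested genes of the other lists, 11 to 23 higher (17 with all libraries) and 4 to 9 lower (9 with all libraries). With no filter on low counts, 2 genes were higher past the fold limit instead of 1, because STC2 then entered with a log2 fold change of 1.73 (adjusted p = 0.0426), which rests on 77 counts in HDAC8 replicate 1. HDAC8 passed the test under none of the alternatives, with log2 fold changes between -0.16 and 0.080. A replicate block left 17 genes past the test, all of them among the 19; PDIA3 (adjusted p = 0.0530) and SDF2L1 (adjusted p = 0.0606) were lost. Deviations of same-numbered libraries correlated at -0.049, -0.12 and -0.076, none above 0.1, and no library correlated best with its own number. By CPM without length ATF4 ranked 18 rather than 7 among the 52 genes, and by the union of exons, added after seeing the data, 8. In the first window of each gene alone, also added then, 5 rather than 7 genes held a CARE core and 6 rather than 7 an ERSE. Depth limits CHAC1, STC2, ALDH1L2 and DERL3.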
